A study of Mus musculus with 4 samples.

Results

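Podocyte foot processes are held in shape by an actin cytoskeleton, and the 10 genes described here encode regulators of it: Synpo, Actn4, Inf2, Arhgdia, Myo1e, Anln, Plce1, Myh9, Ezr and Cfl1. They were chosen by name for the known roles of their proteins, by a rule that uses no measured value, although earlier results of these data were known when they were chosen. All 10 were found among the 54532 genes deposited, and all 10 were among the 14095 genes that passed the filter on low counts. RNA-sequencing had been performed on MPC5, a conditionally immortalized mouse podocyte cell line. The IL-12 treatment group (2 libraries) had received 400 ng/ml IL-12, a cytokine of T helper 1 responses, for 6 h, and the control group (2 libraries) had received saline. The methods describe growth with interferon-γ at a permissive temperature and differentiation without it, for a line used in both groups, with no genetic change and no other agent that sets the groups apart. Whether the sequenced podocytes had been differentiated is not stated. No source says that replicate libraries were made from separate cultures, and the p-values therefore measure only the spread between these libraries, which may be technical. All 4 libraries derive from 1 cultured line.

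The foot processes of a podocyte interdigitate with those of its neighbours around the glomerular capillary and are joined by the slit diaphragm. Their core is a bundle of actin filaments crosslinked by α-actinin-4 and synaptopodin and tensioned by non-muscle myosin, while filament nucleators, severing proteins and small GTPases control how quickly the filaments turn over. Inherited mutations of ACTN4, INF2, ARHGDIA, MYO1E, ANLN, PLCE1 and MYH9 in people cause proteinuric kidney disease, and foot process effacement is accompanied by rearrangement of this network.

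Depth was similar in the 4 libraries, with 18355379 to 20098012 counts each, and counts differed more between groups (chi-square per degree of freedom 16.4 to 19.7) than within them (2.13 and 2.41). Of the 15 podocyte markers examined, 8 passed the filter on low counts. The slit diaphragm gene Nphs1, which defines the differentiated podocyte, had 0 or 1 counts in every library, Wt1, its master transcription factor, had 4 to 16 counts, and Ptpro, Tcf21 and Dach1 had none. Kirrel, another slit diaphragm gene, stood at 869 CPM (counts scaled to library size) in the control group and 848 CPM in the IL-12 treatment group, and Cd2ap, an adaptor at the slit diaphragm, at 277 and 274 CPM. The summed podocyte markers, which include Synpo and Plce1, ranged from 2202 to 2220 CPM in the control group and from 1923 to 1958.5 CPM in the IL-12 treatment group. Markers of other cells were mixed. Tubular markers summed to 831 and 867 CPM in the control libraries against 640 and 679 CPM under IL-12, with 2 of 3 tested markers downregulated and Slc34a1 and Umod at 0 counts. Leukocyte markers summed to 79.9 and 87.4 CPM against 34.3 and 37.8 CPM, with 2 of 3, Ms4a2 and Csf1r, downregulated and Adgre1 and Cd3e at 0 counts. Csf1r overlaps Hmgxb3 on the other strand, which had 4611 counts against its 1294, so its value is uncertain. Mesangial markers were at 97.3 and 102 CPM against 99.8 and 110 CPM. Of the endothelial markers only Ehd3 was tested, at 10.3 and 8.35 CPM, and it did not pass. Among all genes tested, 14.4% were downregulated in the same fit. The part of these other markers in the results was not tested. In bulk RNA, fewer cells of a type and less RNA per cell cannot be told apart.

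Of the 10 regulators, 5 were upregulated in the IL-12 treatment group (Myh9, Arhgdia, Cfl1, Myo1e and Actn4), 3 were downregulated (Synpo, Plce1 and Ezr), and Inf2 and Anln did not pass the test. A gene passed when its p in edgeR's quasi-likelihood test, adjusted after Benjamini-Hochberg over all genes tested, was below 0.05. By the same rule 30.5% of all genes tested passed, 16.1% upwards and 14.4% downwards. Upward changes were thus 52.8% of the calls, and they were 40.5% with total counts in place of TMM scaling. These regulators are well expressed, and among the 6167 genes at or above the level of the lowest of them, Plce1, 46.3% passed. All but Plce1 were above 100 CPM in both groups. Of the 2560 genes averaging at least 100 CPM, 53.7% passed, 32.1% upwards and 21.6% downwards. Past the stricter limit of 2-fold with the same adjusted p there were 0 of the 10, compared with 1.61% of all genes, 0.858% upwards and 0.752% downwards. Their median log2 fold change was 0.12, against 0.00 for all genes, and their median absolute log2 fold change was 0.20, against 0.16. In all 10 the values of the groups did not overlap, with the IL-12 treatment group above in 6 and below in 4. Groups that did not overlap were found in 62.9% of all genes, with IL-12 above in 31.7% and below in 31.2%. The plot of log2 fold changes sets the 3 downregulated genes, all of which changed by more than the upregulated genes, apart from the rest.

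**Figure D1:**
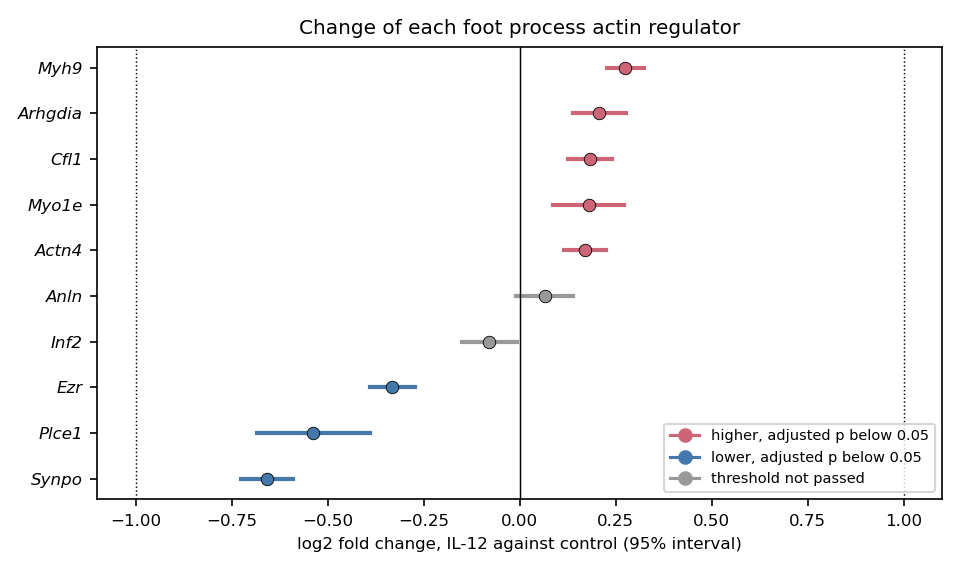
Log2 fold change (IL-12 treatment group over control group, x axis) of each of the 10 regulators with its 95% interval from edgeR's fit, and dotted lines at 2-fold. Synpo at -0.66, Plce1 at -0.54 and Ezr at -0.33 lie below 0, and the largest upward change is that of Myh9 at 0.28.

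**Figure D2:**
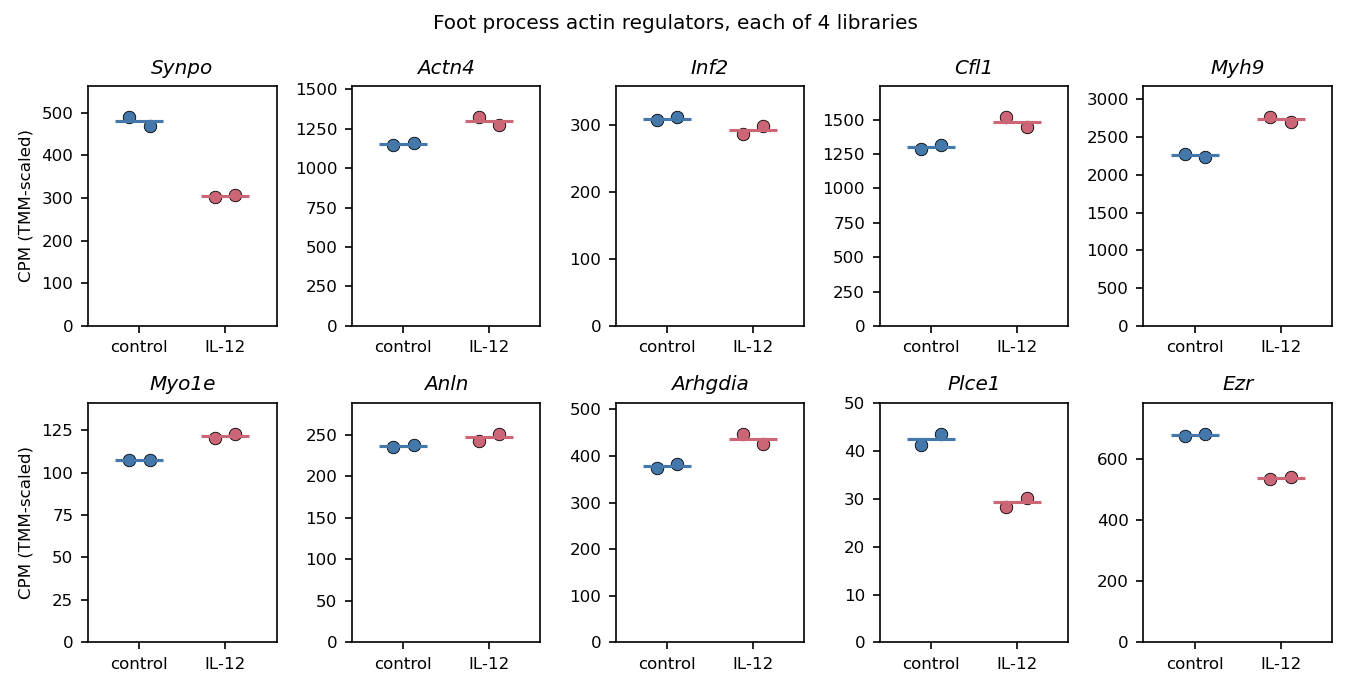
CPM scaled by TMM factors (y axis, from 0, 1 panel per gene) of the 4 libraries, with a point for each library and a line for each group mean. Within each gene the 2 libraries of a group lie close together, the widest gap being 0.08 on the log2 scale in Plce1.

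The promoters of Actn4, Myh9, Ezr, Myo1e and Plce1 are shown because they cover genes that rose and genes that fell and include both motors. Each run is the 250 bases before the annotated RefSeq start (GRCm38.p6), written 5′ to 3′ on the gene's strand in lower case. Capitals mark the motifs searched on both strands, which were TGACTCA or TGAGTCA (AP-1), GGGCGG (GC box), GGAATG (TEAD), CACGTG (E-box), CCAAT and the CArG box of serum response factor. A match describes these letters only.
Actn4, chr7:28962333-28962582, reverse strand: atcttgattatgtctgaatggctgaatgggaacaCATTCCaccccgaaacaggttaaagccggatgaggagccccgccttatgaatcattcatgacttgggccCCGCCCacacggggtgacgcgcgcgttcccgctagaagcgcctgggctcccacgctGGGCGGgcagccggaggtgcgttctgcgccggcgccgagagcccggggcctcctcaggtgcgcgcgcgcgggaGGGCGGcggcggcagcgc
Myh9, chr15:77842176-77842425, reverse strand: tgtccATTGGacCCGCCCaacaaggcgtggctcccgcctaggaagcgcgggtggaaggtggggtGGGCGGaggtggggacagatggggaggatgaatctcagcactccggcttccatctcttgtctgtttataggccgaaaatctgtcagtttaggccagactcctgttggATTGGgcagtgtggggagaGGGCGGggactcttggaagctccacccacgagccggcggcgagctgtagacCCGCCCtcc
Ezr, chr17:6782781-6783030, reverse strand: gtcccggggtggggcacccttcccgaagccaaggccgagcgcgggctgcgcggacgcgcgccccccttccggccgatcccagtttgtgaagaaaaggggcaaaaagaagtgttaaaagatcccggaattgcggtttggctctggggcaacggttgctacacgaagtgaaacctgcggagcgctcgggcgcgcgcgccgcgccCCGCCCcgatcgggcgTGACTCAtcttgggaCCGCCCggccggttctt
Myo1e, chr9:70207100-70207349, forward strand: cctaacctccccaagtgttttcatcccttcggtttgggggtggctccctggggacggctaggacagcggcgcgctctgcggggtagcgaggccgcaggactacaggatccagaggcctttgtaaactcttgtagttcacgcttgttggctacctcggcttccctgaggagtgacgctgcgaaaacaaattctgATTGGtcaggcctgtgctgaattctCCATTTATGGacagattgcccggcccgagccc
Plce1, chr19:38523947-38524196, forward strand: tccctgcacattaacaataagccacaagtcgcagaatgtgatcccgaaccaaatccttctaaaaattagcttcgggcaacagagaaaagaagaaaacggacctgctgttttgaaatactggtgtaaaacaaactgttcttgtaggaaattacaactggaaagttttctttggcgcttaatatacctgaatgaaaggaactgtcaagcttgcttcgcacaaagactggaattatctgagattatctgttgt

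The RefSeq table held 11 such windows for 9 of the 10 genes, with 2 each for Inf2 and Arhgdia. Synpo has none there. GC boxes occurred in 8 of the 11 windows and in 32.7% of 32851 promoters of that length. The 8 include both windows of Inf2 and both of Arhgdia, so these genes are counted more than once. Of the promoters above, those of Actn4, Myh9 and Ezr held GC boxes. The AP-1 letters occurred only in Ezr (4.46% of all promoters), 32 bases before the start, and the CArG box only in Myo1e (1.47%), also 32 bases before it. TEAD letters were found in Actn4 and in both overlapping windows of Inf2 (12.6% of all promoters), the E-box in Inf2 and Anln (6.02%), and CCAAT in Myo1e, Myh9 and Cfl1 (33.8%). The Plce1 window held none of these letters and 38.8% G or C, against 52.0% to 84.8% in the other windows, and its start lies 43088 bases inside the deposited gene, so it belongs to a shorter transcript.

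Synpo encodes synaptopodin, a proline-rich actin-associated protein of foot processes that binds α-actinin and protects RhoA from degradation. It lies on the reverse strand of chromosome 18. Its level was 489 and 470 CPM in the control group, and under IL-12 it was 302 and 307 CPM. The IL-12 libraries were both far below the control libraries, and Synpo moved more than any other of the 10. Synpo fell by 36.6%, a log2 fold change of -0.66 ± 0.03 (SE, 95% interval -0.72 to -0.59) with an adjusted p of 3.0e-11 in edgeR's quasi-likelihood test. Over the alternative analyses the log2 fold change of Synpo stayed between -0.70 and -0.63.

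Actn4, on the reverse strand of chromosome 7 (chr7:28893248-28962340, GRCm38), encodes α-actinin-4, the crosslinker that ties filaments of the foot process into parallel bundles. Control libraries held 1147 and 1163 CPM of Actn4 and IL-12 libraries 1322 and 1275 CPM. Both IL-12 libraries were the higher ones, by 12.5% on average (log2 fold change 0.17 ± 0.03, SE, with an adjusted p of 6.07e-05 in edgeR's quasi-likelihood test). Synpo and Actn4, whose proteins bind each other on the same bundles, therefore differed in the direction of their change.

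The closest relative of Actn4, whose promoter above carries 3 GC boxes and 1 TEAD motif, is Actn1, encoding α-actinin-1, which crosslinks stress fibres and anchors them at focal adhesions. Actn1 averaged 572 ± 9.17 CPM in the control group and 870 ± 23.2 CPM in the IL-12 treatment group (SD, n = 2 libraries). It was upregulated by 0.61 ± 0.03 on the log2 scale (SE, adjusted p of 2.03e-11 in edgeR's quasi-likelihood test), a larger change than that of Actn4. Per kilobase of gene length, Actn4 supplied 64.2% and 65.0% of the α-actinin counts in the control libraries and 57.4% in each of the IL-12 libraries. The share of Actn4 was thus 7.18 percentage points lower in the IL-12 treatment group, although its own level was higher. An exact two-sided permutation test of this share gave p = 0.333, the smallest value that 2 libraries against 2 allow, and this limit holds for every such share given for the other families.

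Inf2 encodes inverted formin 2, which both polymerizes and severs actin filaments, and lies on the forward strand of chromosome 12 (chr12:112588784-112615557). Its control libraries were at 307 and 311 CPM and its IL-12 libraries at 286 and 299 CPM. The IL-12 values were the lower ones, and the log2 fold change of -0.08 ± 0.03 (SE, 95% interval -0.15 to -0.01) had an adjusted p of 0.0897 in edgeR's quasi-likelihood test. It did not pass. With other scalings Inf2 did pass, at -0.10 with an adjusted p of 0.0432 under upper-quartile scaling and at -0.12 with an adjusted p of 0.0115 under total counts in edgeR's test.

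Among the 12 formins tested, Inf2 included, 3 were upregulated, 3 were downregulated and 6 did not pass, with a median log2 fold change of -0.09. The split was 2 upwards and 5 downwards with upper-quartile scaling and 2 and 6 with total counts. A share of 46.3% passed among all genes at or above the level of Plce1. Some formins lie below that level, and 30.5% passed among all genes tested. Formins nucleate and elongate unbranched filaments. Fhod3, a formin of stress fibres, fell from 144 to 98.5 CPM (log2 fold change -0.55), and Fhod1 fell from 116 to 93.1 CPM (-0.32), whereas Fmn1, an elongating formin, rose from 124 to 153 CPM (0.30). The largest of the 3 adjusted p-values in edgeR's quasi-likelihood test was 4.41e-05, for Fmn1. Fhod1 overlaps Tmem208 and Fhod3 overlaps Tpgs2, each on the other strand, and as the sources do not say that strand was used in counting, the reads of each pair cannot be told apart.

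Cfl1, on the forward strand of chromosome 19 (chr19:5490455-5495201), encodes cofilin-1, which severs ageing filaments and returns monomers to the pool. The control libraries contained 1289 and 1319 CPM and the IL-12 libraries 1517 and 1445 CPM. Higher values were found in both IL-12 libraries, by 13.6% (log2 fold change 0.18 ± 0.03, SE, with an adjusted p of 3.77e-05 in edgeR's quasi-likelihood test). Of the 50-base stretches of its transcript, 9.11% also occur in other genes, chiefly the processed pseudogene Gm6180, which had 143 counts in all libraries together, against 105483 for Cfl1.

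The family of cofilin-1 also holds destrin and the muscle-type cofilin-2. Dstn rose from 352 to 401 CPM (log2 fold change 0.19, adjusted p of 0.000157 in edgeR's quasi-likelihood test), and Cfl2 was at 130 CPM in both groups. Cfl1 made up 71.2 ± 0.612% of the family's counts per kilobase in the control group and 71.6 ± 0.431% in the IL-12 treatment group (SD, n = 2 libraries), and here the libraries of the groups overlapped. In the wider list of 22 cofilin pathway genes, 9 were upregulated, 3 were downregulated and 10 did not pass (7 and 4 passed with total counts). All genes tested passed upwards in 16.1% and downwards in 14.4%, and those at or above the level of Plce1 in 25.9% and 20.4%. Wdr1, the cofilin cofactor AIP1, rose from 487 to 624 CPM (0.36, adjusted p of 3.05e-08 in edgeR's quasi-likelihood test), while Pfn2, a profilin that feeds monomers to growing ends, fell from 281 to 203 CPM (-0.47, adjusted p of 1.43e-08).

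Myh9 encodes the heavy chain of non-muscle myosin IIA, the motor that contracts actin bundles. It occupies chr15:77760587-77842175 on the reverse strand and was the most strongly counted of the 10. Control libraries gave 2277 and 2242 CPM, and 2763 and 2707 CPM were measured under IL-12. The groups lay well apart, the IL-12 treatment group being 21.1% higher. The log2 fold change was 0.28 ± 0.02 (SE, 95% interval 0.23 to 0.32), with an adjusted p of 3.09e-08 in edgeR's quasi-likelihood test, the smallest adjusted p among the 5 upregulated regulators.

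Myh10, which encodes the heavy chain of myosin IIB, changed the other way, from 481 to 442 CPM (log2 fold change -0.12, adjusted p of 0.00346 in edgeR's quasi-likelihood test). Myh14, for myosin IIC, had 0 to 3 counts per library. The share of Myh9 in the counts per kilobase of these 3 heavy chains was 79.2% in each control library, and under IL-12 it was 83.5% and 83.2%. Across 13 tested genes of class II myosin and its control, 6 were upregulated (3 with total counts), 1 was downregulated and 6 did not pass, with Rock2, a kinase that activates myosin II, rising from 210 to 243 CPM (0.21, adjusted p of 0.000317 in edgeR's quasi-likelihood test). Beside this list, 16.1% of all genes tested passed upwards and 14.4% downwards, and 25.9% and 20.4% at or above the level of Plce1.

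Myo1e encodes the class I myosin 1e, a single-headed motor that links the membrane to actin near the slit diaphragm. It is found on the forward strand of chromosome 9 (chr9:70207350-70399766). The control libraries had 108 and 107 CPM and the IL-12 libraries 121 and 123 CPM. Both IL-12 values exceeded both control values, by 13.3% (log2 fold change 0.18 ± 0.04, SE, with an adjusted p of 0.0039 in edgeR's quasi-likelihood test). The other long-tailed class I myosin, Myo1f, had no count in any library. Of 6 class I myosins tested, 2 were upregulated, Myo1e and Myo1c, and none was downregulated, where Myo1c, a short-tailed motor, rose from 614 to 679 CPM (0.15, adjusted p of 0.000904 in edgeR's test). Of all genes tested, 16.1% passed upwards and 14.4% downwards, against 25.9% and 20.4% of those at or above the level of Plce1.

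Anln encodes anillin, a scaffold that binds actin, myosin II and septins in the contractile ring of dividing cells and is also found in podocytes. It lies on the reverse strand of chromosome 9 (chr9:22332012-22389188). Its values were 235 and 237 CPM in the control group, and under IL-12 they were 243 and 251 CPM. Although the groups did not overlap, the difference of 4.66% (log2 fold change 0.07 ± 0.04, SE, 95% interval -0.01 to 0.14) did not pass, with an adjusted p of 0.181 in edgeR's quasi-likelihood test. The 16 septins and cytokinesis partners tested, Anln included, held 1 upregulated gene (Rhoa, the GTPase that directs the contractile ring, at 314 and 336 CPM, a call lost in 10 of 15 alternatives) and 1 downregulated gene (Cit, citron kinase, at 47.3 and 41.0 CPM, a call lost in 7 of 15). Proliferation markers summed to 2370 and 2393 CPM in the control group, and under IL-12 to 2460 and 2476 CPM (2 libraries each). Of the 14 proliferation markers, 4 were upregulated (Mcm2, Pcna, Rrm2 and Tyms, by 0.12 to 0.22 on the log2 scale), 1 was downregulated (Mki67, at 311 and 282 CPM, a call lost in 4 of 15 alternatives) and 9 did not pass. With total counts, 2 were upregulated and 1 was downregulated. For comparison with both lists, 16.1% of all genes tested passed upwards and 14.4% downwards. At or above the level of Plce1 these shares were 25.9% and 20.4%. Anln is itself a gene of dividing cells, and the part of proliferation in its level was not tested.

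Arhgdia encodes a GDP-dissociation inhibitor, which holds RhoA, Rac1 and Cdc42 inactive in the cytosol. It lies at chr11:120578104-120581624 on the reverse strand. Control libraries showed 373 and 382 CPM and IL-12 libraries 447 and 424 CPM. The IL-12 treatment group was 15.5% higher without overlap (log2 fold change 0.21 ± 0.03, SE, with an adjusted p of 8.16e-05 in edgeR's quasi-likelihood test). Of its paralogs, Arhgdib was at 47.3 and 48.4 CPM in the groups (adjusted p of 0.74 in edgeR's test) and Arhgdig had no count. Arhgdia accounted for 85.8% of the family's counts per kilobase in the control group and 87.2% in the IL-12 treatment group, a difference of 1.40 percentage points that was 0.891 without IL-12 replicate 1.

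Among 16 small GTPases of the RhoA, Rac1 and Cdc42 group and their inhibitors, 6 were upregulated and 3 were downregulated. Rac1, which drives lamellipodia, rose from 399 to 477 CPM (log2 fold change 0.26, adjusted p of 4.4e-06 in edgeR's quasi-likelihood test), while Rhob and the atypical Rhou fell from 156 to 126 CPM (-0.30) and from 71.7 to 49.3 CPM (-0.54). Of 26 exchange factors and GTPase-activating proteins, 3 were upregulated, 9 were downregulated and 14 did not pass. For comparison with both lists, 25.9% of all genes at or above the level of Plce1 passed upwards and 20.4% downwards. Both lists also hold genes below that level, and of all genes tested 16.1% passed upwards and 14.4% downwards. Dlc1, which inactivates RhoA, rose from 195 to 295 CPM (0.60), whereas Net1, an exchange factor that activates RhoA, fell from 281 to 196 CPM (-0.52) and Myo9a, a motor with a GTPase-activating domain, fell from 203 to 139 CPM (-0.54). Arhgap24, a Rac1-inactivating protein of podocytes, fell from 41.3 to 25.7 CPM (-0.68, adjusted p of 6.5e-07 in edgeR's quasi-likelihood test).

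Plce1 encodes phospholipase C ε1, which cleaves the lipid PIP2 downstream of small GTPases. It spans chr19:38481109-38785030 on the forward strand and had the lowest level of the 10. The libraries held 780 and 822 counts in the control group and 561 and 544 counts in the IL-12 treatment group, or 41.2 and 43.6 CPM against 28.4 and 30.1 CPM. The IL-12 libraries were the lower ones, and Plce1 fell by 31.1%. The log2 fold change was -0.54 ± 0.07 (SE, 95% interval -0.68 to -0.39), the widest interval of the 10, with an adjusted p of 8.76e-06 in edgeR's quasi-likelihood test. In the alternative analyses it ranged from -0.58 to -0.37.

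Most phospholipase C isoforms cleave the same lipid under different signals. Of 11 tested, Plce1 included, 6 were downregulated, none was upregulated and 5 did not pass, with a median log2 fold change of -0.27. Among all genes 14.4% were downregulated, and among those at or above the level of Plce1 20.4%. Without control replicate 2, 4 were downregulated and 1 was upregulated. Plcb4, an isoform controlled by G proteins, fell from 59.4 to 44.8 CPM (-0.41, adjusted p of 2.44e-05 in edgeR's quasi-likelihood test), and Plcd1, a calcium-stimulated isoform, from 41.3 to 30.4 CPM (-0.44, adjusted p of 7.05e-05).

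Ezr encodes ezrin, which in its active form ties actin to membrane proteins and in podocytes links podocalyxin to the cytoskeleton. It lies on the reverse strand of chromosome 17 (chr17:6738041-6782784), and its promoter was the one with the AP-1 letters. It stood at 673 and 681 CPM in the control group, and at 535 and 542 CPM under IL-12. Every IL-12 value was below every control value, and Ezr fell by 20.5% (log2 fold change -0.33 ± 0.03, SE, 95% interval -0.39 to -0.27, with an adjusted p of 3.77e-08 in edgeR's quasi-likelihood test).

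The ezrin-radixin-moesin proteins share this linker function. Msn, encoding moesin, rose from 1184 ± 21.2 to 1588 ± 13.0 CPM (SD, n = 2 libraries), a log2 fold change of 0.42 ± 0.02 (SE) with an adjusted p of 3.36e-10 in edgeR's quasi-likelihood test. Rdx, encoding radixin, was at 209 and 223 CPM (adjusted p of 0.0678 in edgeR's test). Per kilobase, Ezr supplied 46.6% and 47.4% of the counts of the 3 genes in the control libraries and 35.4% in each of the IL-12 libraries. Msn supplied 42.7% in the control group and 54.3% in the IL-12 treatment group. By this measure Ezr led in the control libraries and Msn in the IL-12 libraries, but that order rests on the deposited gene lengths. In counts, Msn was above Ezr in every library. The log2 ratio of Ezr to Msn counts fell from -0.81 to -1.56. An exact two-sided permutation test of this ratio gave p = 0.333, the smallest it can give, and 0.389 after Benjamini-Hochberg adjustment over the 7 pairs of paralogs compared.

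Cd44, a membrane receptor for hyaluronan that binds these linkers, rose from 176 to 365 CPM (log2 fold change 1.06 ± 0.03, SE, adjusted p of 5.94e-14 in edgeR's quasi-likelihood test). It was the only one of the 10 tested linkers and membrane partners to pass 2-fold. Podxl, for podocalyxin, rose from 56.7 to 71.4 CPM (0.33, adjusted p of 0.000391 in edgeR's test).

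**Figure D3:**
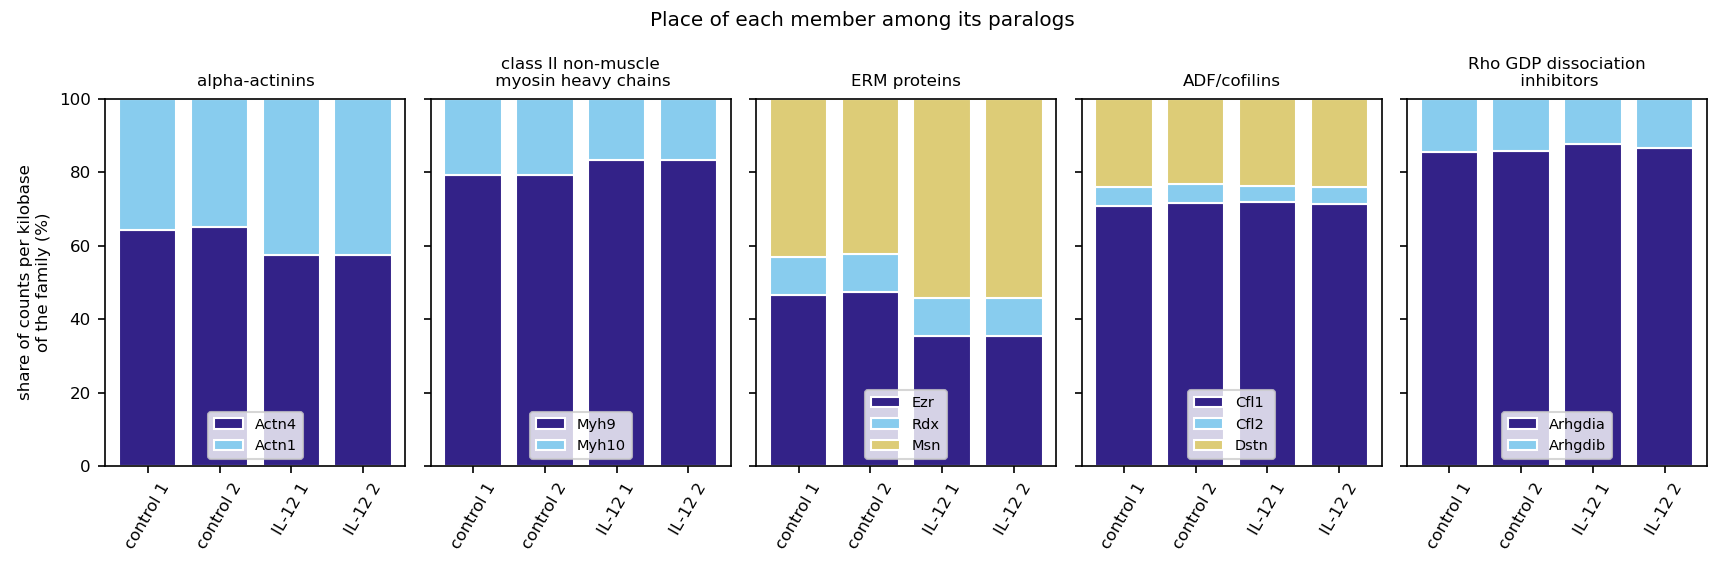
Stacked bars from 0 to 100% (y axis, share of a family's counts per kilobase of gene length) for each of the 4 libraries and each protein family. Ezr drops from 46.6% and 47.4% in the control libraries to 35.4% in both IL-12 libraries, Actn4 from 64.2% and 65.0% to 57.4%, and the Myh9 bar grows from 79.2% to over 83%.

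The levels of the 10 genes were compared with each other as deposited FPKM, which divide by gene length. The deposited length is far above that of the longest coding transcript for some genes, as for Myh9 (12928 against 7433 bases) and Actn4 (6127 against 3877 bases). For Ezr the 2 lengths are close (3290 against 3164 bases). The order given here therefore depends on the length used. With the transcript lengths, Ezr would lie below Myh9 and Actn4 in the control group already. Cfl1 was the highest in both groups, at 554 ± 9.57 FPKM in the control group and 630 ± 21.6 FPKM in the IL-12 treatment group (SD, n = 2 libraries for all levels here). In the control group Ezr followed at 206 ± 1.98 FPKM, then Actn4 at 188 ± 2 FPKM, Myh9 at 175 ± 1.67 FPKM and Arhgdia at 167 ± 2.95 FPKM. Synpo was lower, at 50.3 ± 1.37 FPKM, just under Inf2 at 63.5 FPKM. Anln at 26.0 FPKM, Myo1e at 18.8 FPKM and Plce1 at 2.65 FPKM closed the order.

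In the IL-12 treatment group Actn4 and Myh9 were both at 212 FPKM, with SDs of 5.51 and 3.07, so these neighbours did not differ beyond their spread. Arhgdia followed at 193 ± 7.18 FPKM. By deposited FPKM, Ezr moved from rank 2 to rank 5, at 164 ± 1.55 FPKM, and Synpo stayed at rank 7 with 31.9 ± 0.4 FPKM. The 10 genes together made up 0.704% of all counts in each control library and 0.745% and 0.730% in the IL-12 libraries. Cfl1 alone supplied 38.0% and 38.4% of their summed FPKM in the control group and, under IL-12, 40.9% and 40.2%, while Synpo supplied 3.56% and 3.37% and then 2.01% and 2.11%.

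**Figure D4:**
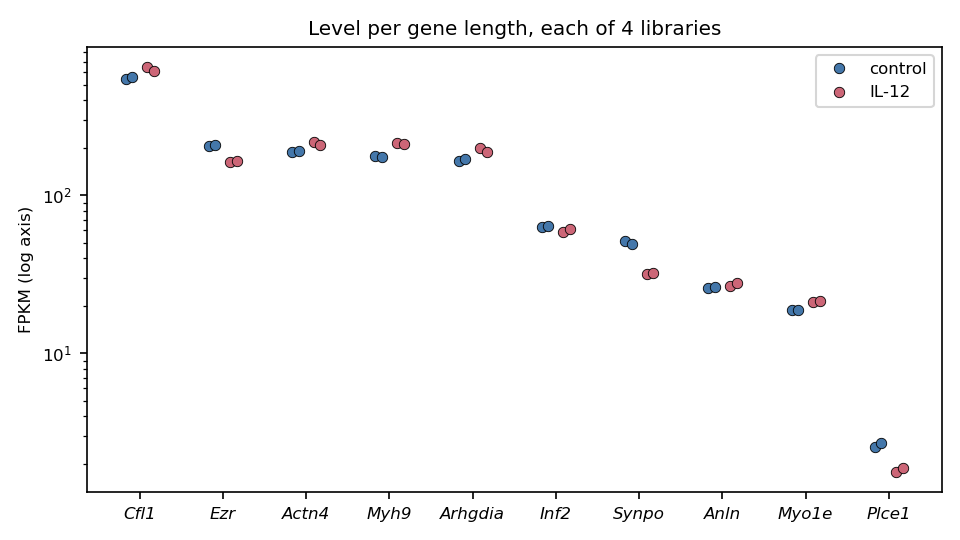
Deposited FPKM (log axis) of the 10 regulators in each of the 4 libraries, ordered by level. The genes span from Plce1 at 2.65 FPKM to Cfl1 at 554 FPKM in the control group. By deposited FPKM, Ezr passes below Actn4, Myh9 and Arhgdia in the IL-12 treatment group, an order that depends on the deposited gene lengths.

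The other genes of the actin machinery were described by 16 lists, proliferation markers and phospholipase C isoforms included, holding 205 tested genes besides the 10. Of these, 63 were upregulated and 38 were downregulated, or 49.3% in all. The median log2 fold change was 0.03, and with total counts 49 were upregulated and 46 downregulated. Beside them, 46.3% of genes at or above the level of Plce1 passed, and 53.7% of those at or above 100 CPM. Some of the 205 lie below these levels, and of all genes tested 30.5% passed. Upwards alone, the shares were 25.9%, 32.1% and 16.1% in the same order. The Arp2/3 complex, which nucleates branched filaments, held 6 upregulated and no downregulated subunits of 9 tested (median 0.20), and 6 and 1 with total counts. Arpc1b rose from 262 to 340 CPM (0.37), Actr3 from 321 to 380 CPM (0.24) and Arpc2 from 318 to 364 CPM (0.20), with adjusted p-values of at most 0.000149 in edgeR's quasi-likelihood test. Arpc1b overlaps Pdap1 on the opposite strand, which had 17465 counts against its 22814, so its value is uncertain. Of the 15 WASP and WAVE activators of this complex, 3 rose and 3 fell. Subunits of the WAVE complex were found in both directions. Those upwards were Abi1 at 0.26, Cyfip1 at 0.23 (from 133 to 156 CPM) and Nckap1 at 0.17. Those downwards were Wasf2 at -0.17 and the less counted Cyfip2 at -0.30 (from 22.1 to 17.9 CPM). Wasf1, Abi2 and Brk1 did not pass. Cyfip1 overlaps Nipa2 on the opposite strand, which had 3427 counts against its 10955, so its value is uncertain. The subunits named were chosen for mention after their values were seen.

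Filament bundling and crosslinking genes, Synpo and Actn4 included, counted 12 upregulated, 3 downregulated and 6 not passing among 21 (median 0.25). Shares of 25.9% upwards and 20.4% downwards, found in all genes at or above the level of Plce1, stand beside the counts given here. The lists also hold genes below that level, and in all genes tested the shares were 16.1% and 14.4%. Pls1, for the bundler plastin 1, fell past 2-fold from 1.88 to 0.877 CPM, but it rested on 36, 35, 15 and 18 counts, and the call was lost in 4 of 14 alternatives. Capping and monomer-binding genes counted 6 upregulated and 3 downregulated of 14, where Tmod3, which caps pointed ends, rose from 260 to 328 CPM (0.34), Tmsb4x, which sequesters monomers, rose from 366 to 436 CPM (0.26) and Gsn, the severing and capping protein gelsolin, fell from 556 to 448 CPM (-0.31). Actb, Actg1 and Acta2, the 3 actins tested, rose by 0.37, 0.30 and 0.14 on the log2 scale. The call of Acta2 was lost in 4 of 15 alternatives. In Actg1, 56.7% of the 50-base stretches occur in other genes, most of all in the processed pseudogene Gm12715 (2461 counts), and 14.2% of those of Actb do. The counts of Actg1 and Actb therefore cannot be assigned with certainty. How much the 2 share with each other was not measured separately.

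Other cytoskeletal genes of inherited podocyte disease held 2 upregulated and 4 downregulated genes of 15, with a median log2 fold change of -0.12. The shares in all genes at or above the level of Plce1 were 25.9% upwards and 20.4% downwards. Some genes of the list lie below that level, and in all genes tested the shares were 16.1% and 14.4%. Kank1, an adaptor at focal adhesions, fell from 1374 and 1249 counts in the control libraries to 785 and 728 counts in the IL-12 libraries (log2 fold change -0.80, adjusted p of 9.67e-09 in edgeR's quasi-likelihood test), and Arhgap24 and Dlc1, given above among the GTPase regulators, belong to this list as well.

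**Figure D5:**
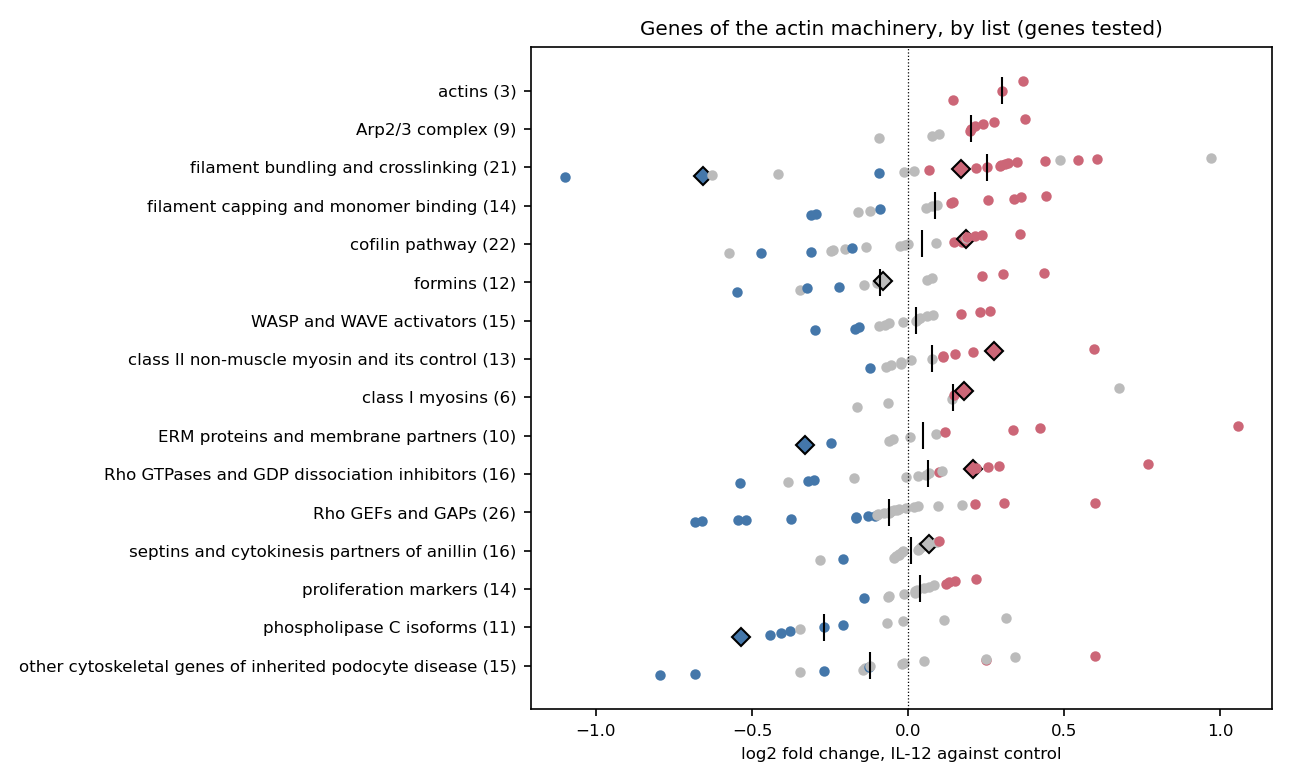
Log2 fold change (x axis, IL-12 treatment group over control group) of the tested genes of each actin list, with red for genes that passed upwards, blue for genes that passed downwards and grey for genes that did not pass. Diamonds are the 10 regulators and black ticks the list medians, which run from -0.27 for phospholipase C isoforms to 0.30 for actins.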

How the data were processed

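Gene expression was analysed in the 2 control and 2 IL-12 libraries, grouped by their labels. For every gene the authors deposited unnormalized whole-number counts and FPKM values. Each deposited FPKM equals the count per kilobase, relative to the library's sum, multiplied by a constant of that library (0.985 to 1.02). The labels name HISAT2, StringTie and mm9 without versions or roles, but 98.3% of the deposited gene positions, and all 10 of those described here, equal those of GENCODE M21 on GRCm38. How reads matching several genes, or strand, were handled is not given in the sources used here.

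Counts were tested in R 4.3.3 by the quasi-likelihood test of edgeR 4.0.16, with TMM scaling (factors of 0.985 to 1.02), filterByExpr defaults (a minimum of 10 counts, and 15 in total) and Benjamini-Hochberg adjustment over 14095 genes. Standard errors and 95% intervals are from that fit. CPM are scaled by the TMM factors. A floor of 3 counts is 0.149 to 0.163 CPM. Alternatives used limma 3.58.1 and DESeq2 1.42.0, and figures Python 3.11.15 with matplotlib 3.10.9. The quasi-likelihood test of edgeR and DESeq2's Wald test were checked on simulated data, and the other tests were not. Counts per kilobase were summed within families, and shares were compared by exact permutation over libraries. Promoters were taken from RefSeq, and 50-base stretches from GENCODE transcripts.

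The genes and lists were chosen with earlier results of these data known. The text names all 10 regulators, their family members, from each list every gene past 2-fold and up to 3 genes with the smallest p that passed, every podocyte marker that a statement rests on, and the leading gene of other marker lists where it bears on a result. Some genes that this rule picks are not reported here. With 2 libraries a group, p-values rest on edgeR's model of the spread, since an exact permutation test cannot go below 0.333. Not analysed here were the qPCR and serum data of the study.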

Additional observations from a re-analysis of the deposited data

How the results depend on the processing

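The 8 calls among the 10 regulators held under all 15 alternatives run on them (other scalings, filters and tests, log2 FPKM with limma, the replicate block, and leaving out each library), and no regulator changed sign. Inf2 passed under 2 scalings, which raised the count to 9. Of 764 values for the other 51 named genes, 715 kept direction and side of the threshold, 40 lost the call and 9 reversed. The 9 are Cfl2, at -0.000609 with DESeq2 size factors, -0.0149 with upper-quartile scaling, -0.0402 with total counts, -0.000799 with at least 10 counts in every library, -0.000474 in DESeq2's Wald test, -0.000123 in limma voom and -0.0322 to 0.0358 on leaving out each library (-0.0155 without control replicate 1, -0.0322 without IL-12 replicate 2), and Arhgdib, at -0.00886 with total counts. Of 240 counts of calls per gene list, 23 moved by over 1.5 times, all of them in septins and cytokinesis partners, class II myosin, proliferation markers and capping genes. Neither Cfl2 nor Arhgdib passed the test, and the cause was not tested. The total of genes passing, 4297 (227 past 2-fold), was 2705 (103 past 2-fold) in DESeq2's Wald test, and the genes past 2-fold were 38 with log2(FPKM + 1) and 141 with log2(FPKM + 0.1) in limma. Leaving out each library gave 2528 to 3722 genes and 144 to 254 past 2-fold, the lowest being without IL-12 replicate 1, while 8 regulators passed each time. Without 1 library, the lone one left is assumed to vary like the others. With total counts, 40.5% of calls were upwards, against 52.8%. No source says whether libraries of the same number were prepared together. Their deviations from the group means had a correlation of -0.0297, which cannot settle this with 2 libraries a group. The fit with the replicate block called 4341 genes, 241 past 2-fold and 8 regulators. The share of Cfl1 in its family changed by -0.0712 to 0.794 percentage points when each library was left out.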

Other observations

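Several markers outside the actin lists differed between the groups in the same fit. Npnt, encoding nephronectin, an integrin ligand of the glomerular basement membrane, fell from 471 to 397 CPM (log2 fold change -0.25, adjusted p of 3.93e-06 in edgeR's quasi-likelihood test). Cdh16, a cadherin of renal tubules, fell from 202 to 120 CPM (-0.75, adjusted p of 1.43e-10 in edgeR's test), and Lrp2, the endocytic receptor megalin, fell from 646 to 537 CPM (-0.27, adjusted p of 8.7e-06). Ms4a2, the β chain of the IgE receptor, fell from 56.1 to 17.9 CPM (-1.64, adjusted p of 1.01e-11), while Ptprc, the common leukocyte antigen, had 1 to 12 counts per library.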
